A study of Mus musculus with 10 samples.

Results

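The 4 mouse miRNAs mmu-miR-184-3p, mmu-miR-205-5p, mmu-miR-203-3p and mmu-miR-31-5p (written without the species prefix from here on) are known from the cornea, the lens and stratified surface epithelium. They were taken by name from a table of 1340 mature mouse miRNAs, and all 4 passed the minimum mean signal of 10 that left 588 miRNAs for testing. The table holds a normalised small RNA sequencing signal for 10 libraries of RPE/choroid/sclera, the pigment epithelium, vascular layer and fibrous coat behind the neural retina. All came from wild type C57BL/6J mice aged postnatal day 34. From postnatal day 24 they wore a goggle with a -20 dioptre lens over 1 eye for 10 days, per the labels' protocols, and the other eye had none. A library is labelled by side only, and the side that carried the lens is not stated. The 2 groups here are therefore 5 left and 5 right eyes, and neither is known to be the lens group. Left and right libraries share the title numbers 61, 64, 65, 66 and 68. The labels do not state that a number is an animal, so the p-values measure the spread of side differences between these numbers, not between known animals. If the lens was not always on the same side, comparing sides would blur its effect.

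A miRNA is cut from a hairpin transcript, and the arm that is loaded into an Argonaute protein pairs with target mRNAs mainly through its seed, bases 2 to 8. miR-184 is abundant in the corneal and lens epithelium and has also been described in the pigment epithelium, and a seed mutation in the human gene causes a dominant corneal and lens disease. miR-205 marks stratified epithelia such as corneal, conjunctival and epidermal epithelium. miR-203 rises as keratinocytes leave the basal layer and represses the stem cell factor p63. miR-31 acts in corneal epithelium, epidermis and hair follicles, and is also made by cells outside epithelia. Cornea, lens and conjunctiva are not among the layers named in the tissue label.

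The mature sequences are shown to compare the seeds, which stand in capitals, and miR-200b-3p of the epithelial miR-200 family is added because its level is set beside theirs further on. All are from RefSeq (GRCm38.p6), 5′ to 3′.
miR-184-3p: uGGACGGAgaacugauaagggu
miR-205-5p: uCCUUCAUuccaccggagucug
miR-203-3p: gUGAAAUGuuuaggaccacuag
miR-31-5p: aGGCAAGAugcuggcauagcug
miR-200b-3p: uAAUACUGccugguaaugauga
The 4 seeds differ from each other, and none of the other table miRNAs found by name in RefSeq (1135 of the 1340 in all) has any of them. The longest run of bases shared by a pair of the 4 is 5 bases, between miR-184-3p and miR-205-5p. By contrast, miR-200b-3p has its seed in common with miR-200c-3p and miR-429-3p. Each of the 4 was thus alone in its seed group among the miRNAs matched, and the unmatched ones were not searched.

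The hairpins show where the arms lie, with both mature arms in capitals (RefSeq, 5′ to 3′).
Mir184: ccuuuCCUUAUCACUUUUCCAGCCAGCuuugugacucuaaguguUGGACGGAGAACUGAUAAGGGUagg
Mir205: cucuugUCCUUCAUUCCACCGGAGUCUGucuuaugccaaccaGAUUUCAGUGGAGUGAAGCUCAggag
Mir203: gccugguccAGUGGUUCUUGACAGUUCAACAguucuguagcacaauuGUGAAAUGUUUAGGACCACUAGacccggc
Mir31: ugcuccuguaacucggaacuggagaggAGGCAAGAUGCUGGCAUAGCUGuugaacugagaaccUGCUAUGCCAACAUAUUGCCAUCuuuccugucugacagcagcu
Mir184 lies at chr9:89802260-89802328 on the minus strand, in no other gene annotated by GENCODE M21 (GRCm38). Mir205 lies at chr1:193507463-193507530 on the minus strand, within exon 2 of the long noncoding RNA 4631405K08Rik of the same strand. Mir203 lies at chr12:112130880-112130955 on the plus strand, in no other annotated gene. Mir31 lies at chr4:88910557-88910662 on the minus strand, within exon 3 of the long noncoding RNA AL805899.1 of the same strand. Of the other miRNAs in the table, the nearest to Mir184, Mir205 and Mir31 are miR-12205-5p at 1476 kb, miR-3962 at 1315 kb and miR-491-3p at 788 kb. Mir203 shares its site with the antisense miR-203b.

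The 4 miRNAs differed widely in level. Each is 22 bases long, so length does not separate them, but bias of ligation and the unstated normalisation limit comparing levels between miRNAs. miR-184-3p had a normalised signal of 118434 ± 68758 (SD, n = 10), 0.997% of all signal, and was 19th by mean among the 588 miRNAs tested. miR-205-5p had 8567 ± 4904 and was 76th. miR-31-5p had 7262 ± 722 and was 82nd. miR-203-3p had 1304 ± 243 and was 149th. The order of miR-205-5p and miR-31-5p does not exceed their spread, since miR-205-5p ran from 1729 to 16083 and spanned every value of miR-31-5p. For comparison, the pigment epithelium miRNA miR-204-5p ranked first in all 10 libraries. The retina is outside the tissue label but named by the extract protocol, and its markers miR-182-5p, miR-183-5p, miR-96-5p, miR-124-3p, miR-9-5p and miR-9-3p all had a signal above 0 in every library. Of these, miR-182-5p had a mean of 340524, 8th by mean and above miR-184-3p, and in right eye 68 it ranked 2nd with 9.68% of the signal.

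miR-184-3p, which is known to dominate the miRNA pool of corneal epithelium, had the widest spread in absolute signal. The left eyes had 104898 in number 61, 225576 in 64, 140793 in 65, 179294 in 66 and 51789 in 68. The right eyes had 140793 in number 61, 194838 in 64, 73146 in 65, 21427 in 66 and 51789 in 68. Right eye 66 was the lowest library and left eye 64 the highest, 10.5-fold apart, and both eyes of number 68 were low. The sides overlapped. The eyes of a number differed 8.37-fold in number 66, 1.92-fold in 65, 1.16-fold in 64 and 1.34-fold in 61, the last with the right eye higher. The equal values in number 68 mean that miR-184-3p had the same rank, 32nd, in both libraries: in these values a rank carries nearly the same signal in every library, so equal values do not show equal amounts.

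The stratified epithelium miRNA miR-205-5p had 5733 in left eye 61, 13992 in left 64, 13581 in left 65, 16083 in left 66 and 8559 in left 68. In right eyes it had 10090 in number 61, 7912 in 64, 1729 in 65, 2256 in 66 and 5733 in 68. Right eyes 65 and 66 stood lowest, 7.85-fold and 7.13-fold below the left eyes of the same numbers. The right eye was also lower in numbers 64 and 68, by 1.77-fold and 1.49-fold, while in number 61 it was 1.76-fold higher. The rank of miR-205-5p went from 60th in left eye 66 to 135th in right eye 65.

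miR-203-3p, the miRNA of differentiating keratinocytes, gave the same order of sides within numbers on a smaller scale. The left eyes had 1025 in number 61, 1659 in 64, 1452 in 65, 1555 in 66 and 1387 in 68. The right eyes had 1524 in number 61, 1210 in 64, 1025 in 65, 999 in 66 and 1210 in 68. Its lowest and highest libraries, right eye 66 and left eye 64, were 1.66-fold apart. As for miR-205-5p, the right eye was lower in 4 of 5 numbers and higher in number 61.

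miR-31-5p was nearly level across the libraries. It had 6302 in left eye 61, 8112 in left 64, 6302 in left 65, 7912 in left 66 and 6769 in left 68. The right eyes had 7383 in number 61, 7545 in 64, 8319 in 65, 7209 in 66 and 6769 in 68. The highest library, right eye 65, was the lowest for miR-205-5p, and the whole range of miR-31-5p was 1.32-fold, ranks 77 to 87. The right eye was higher in numbers 61 and 65, lower in 64 and 66 and equal in 68.

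**Figure D1:**
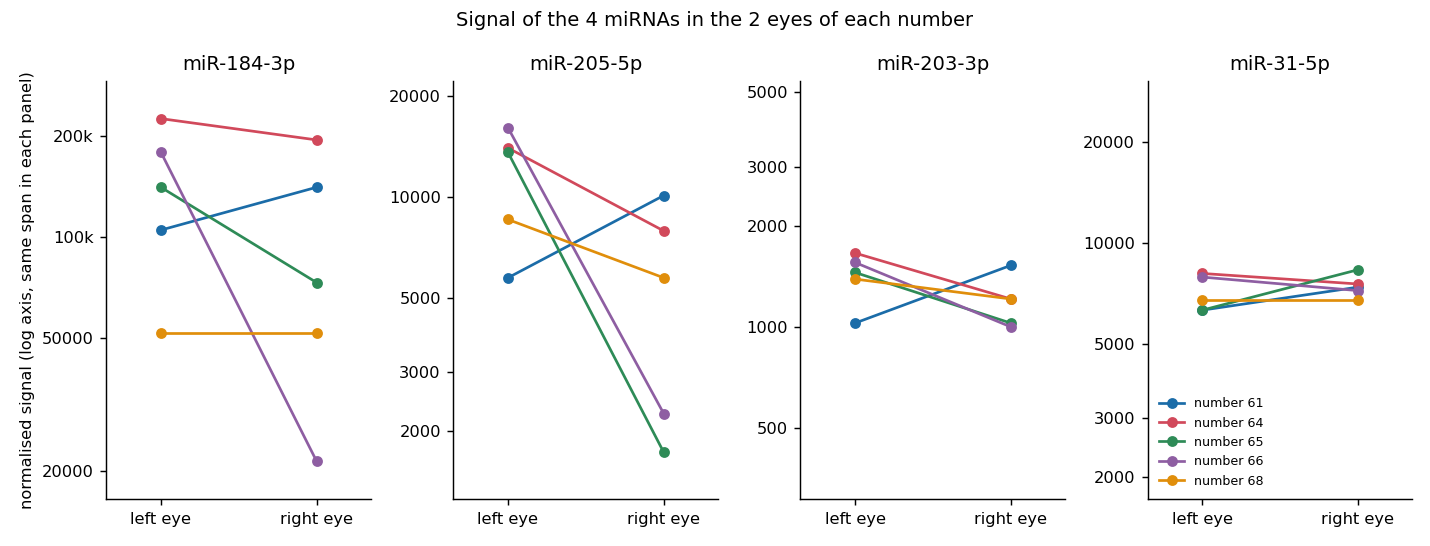
Normalised signal (log axes of the same span) of miR-184-3p, miR-205-5p, miR-203-3p and miR-31-5p in the left and right eye of each of the 5 numbers, with a line joining the eyes of a number. miR-205-5p is 7.85-fold and 7.13-fold lower in the right eye of numbers 65 and 66 and higher in that of 61, miR-184-3p is 8.37-fold lower in that of 66, and miR-31-5p stays between 6302 and 8319.

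Right and left eyes were compared by limma on log2(signal + 1) over all 588 miRNAs, with the title number as a block and Benjamini-Hochberg adjustment. None of the 4 passed an adjusted p of 0.05, nor did any other miRNA (0.0% of those tested), and 13 had an unadjusted p under 0.05 (2.21%). The right minus left difference was -1.28 for miR-205-5p (SE 0.55, adjusted p = 0.967 in limma), with a lower value in 4 of 5 right eyes. Its 95% interval ran from 5.97-fold lower to 1.01-fold higher in the right eye. For miR-184-3p the difference was -0.76 (SE 0.47), lower in 3 of 5 right eyes, with an interval from 3.66-fold lower to 1.28-fold higher. For miR-203-3p it was -0.24 (SE 0.18), with an interval from 1.59-fold lower to 1.13-fold higher. For miR-31-5p it was 0.08 (SE 0.10), with an interval from 1.11-fold lower to 1.24-fold higher. The adjusted p of these 3 was also 0.967 in limma. Differences of several fold are thus within the interval for miR-205-5p and miR-184-3p, and outside it for miR-31-5p.

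By the exact two-sided sign-flip permutation of the 5 pairs, p was 0.375 for miR-184-3p, 0.1875 for miR-205-5p, 0.3125 for miR-203-3p and 0.625 for miR-31-5p. With 5 pairs the smallest p that the exact test can give is 0.0625. A lower value in at least 4 of 5 right eyes was found for 2 of the 4 miRNAs, miR-205-5p and miR-203-3p, and for 78 of the 588 tested (13.3%). None of the 4 was higher in at least 4 of 5 right eyes (14.8% of those tested), lower in all 5 (0.85%) or higher in all 5 (2.04%). The sides overlapped for each of the 4, and 0.17% of the tested miRNAs had sides that did not. The median right minus left difference of the 4 was -0.50 and that of all tested miRNAs 0.02. Single numbers carried much of the difference: without number 66 the value for miR-184-3p was -0.18, and without number 65 that for miR-205-5p was -0.85. Without number 61 the values were -1.80 for miR-205-5p and -0.45 for miR-203-3p.

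The 5 members of the miR-200 family, made from a pair of clusters and known to hold epithelial cells in their epithelial state, were set beside the 4 because they mark epithelium in general. All 5 had a lower mean in the right eye, as had 269 of the 588 tested, with a median difference of -1.04, and none passed in limma. Each was lower in 4 of 5 right eyes (13.3% of those tested were lower in at least 4), numbers 64, 65, 66 and 68, and higher in number 61. That is the same set of numbers as for miR-205-5p and miR-203-3p. The largest of the family, miR-200b-3p, had 1335 in left eye 61, 3191 in left 64, 2316 in left 65, 3359 in left 66 and 1982 in left 68. In right eyes it had 3037 in number 61, 1452 in 64, 366 in 65, 560 in 66 and 1108 in 68.

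**Figure D2:**
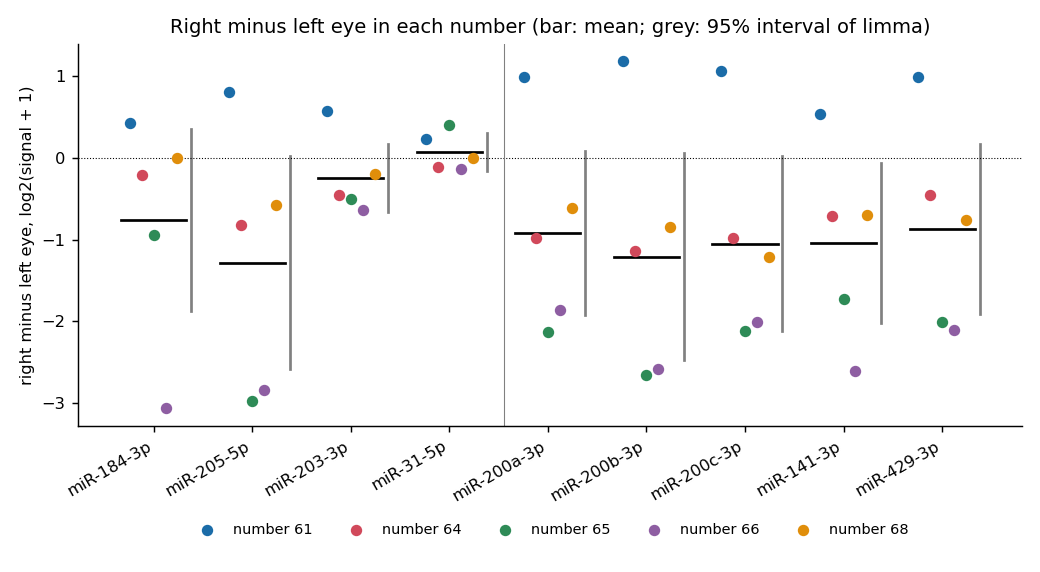
Right minus left eye difference in log2(signal + 1) for each of the 5 numbers (points), with the mean (black bar) and the 95% interval of limma (grey line), for the 4 miRNAs and the 5 members of the miR-200 family. Number 61 lies above 0 in all 9 miRNAs, and numbers 65 and 66 lie lowest in miR-205-5p and the miR-200 family, while miR-31-5p stays close to 0.

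The signal of miR-205-5p kept nearly the same ratio to the summed miR-200 family in all 10 libraries. The family sum ran from 0.740 k in right eye 65 (k for 1000 units of signal) to 5.27 k in left eye 66, a 7.11-fold range, and miR-205-5p ranged 9.30-fold. The ratio of miR-205-5p to that sum lay between 2.11 in right eye 61 and 3.51 in left eye 65, a 1.66-fold range. In right eyes 65 and 66 it was 2.34 and 2.20, against 3.51 and 3.05 in the left eyes of these numbers. The low signal of miR-205-5p in these eyes thus stood beside a low miR-200 signal, with ratios inside the range of the other libraries.

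The other 3 did not hold such a ratio. For miR-184-3p it ran from 13.0 in left eye 68 to 98.8 in right eye 65, a 7.62-fold range, nearly as wide as the 10.5-fold range of the signal itself. For miR-203-3p the ratio ran from 0.295 in left eye 66 to 1.38 in right eye 65, a 4.69-fold range. It was highest in right eyes 65 and 66 (1.38 and 0.975, against at most 0.511 elsewhere), where the miR-200 sum was lowest. miR-31-5p had ratios from 1.503 to 11.2, since it hardly moved while the miR-200 family did. miR-184-3p and miR-205-5p also parted from each other: their ratio was 6.05 in left eye 68 and 42.3 in right eye 65. These differences between the ratios were not tested.

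**Figure D3:**
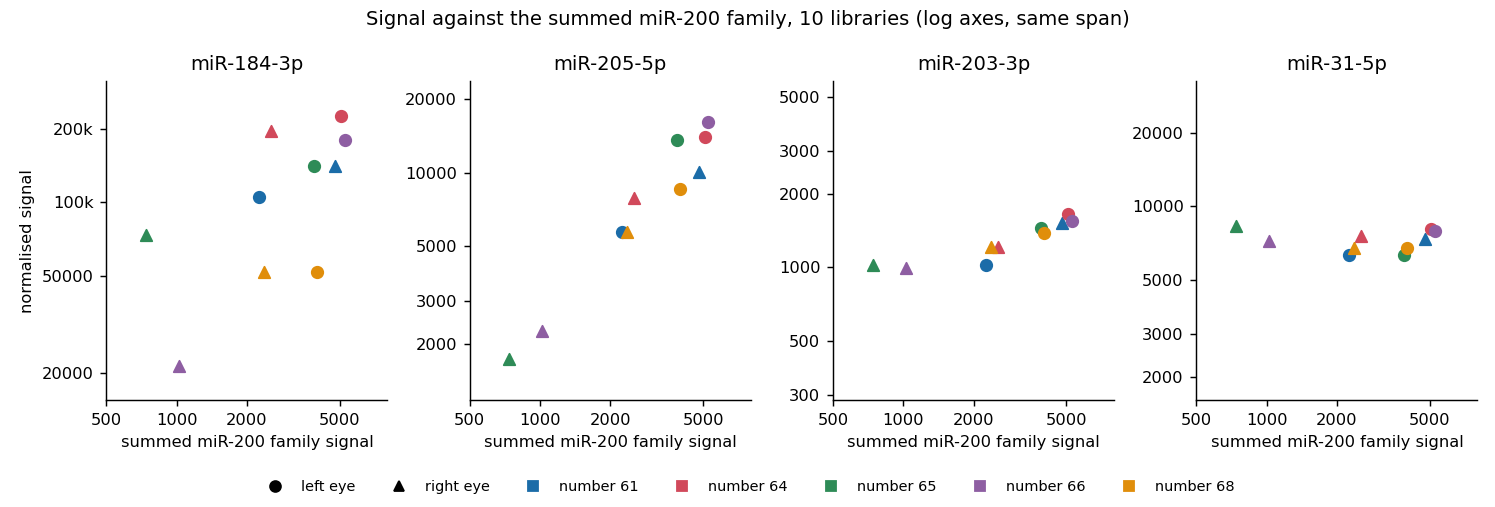
Normalised signal of each of the 4 miRNAs against the summed signal of the 5 miR-200 family members in the 10 libraries (log axes, with the same vertical span), circles for left and triangles for right eyes, coloured by number. miR-205-5p follows the family sum at a ratio of 2.11 to 3.51, miR-203-3p follows it with a flatter slope, miR-31-5p stays level, and miR-184-3p is scattered, with both eyes of number 68 and right eye 66 low.

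The miRNAs most like each of the 4 were sought over the 10 libraries among 583 other miRNAs, by the Pearson correlation of log2(signal + 1). These values are a description without a test, since the eyes of a number may share an animal and all values share the normalisation. For miR-205-5p the closest were miR-200b-3p (r = 0.98, Spearman rho = 0.98), its own other arm miR-205-3p (r = 0.98, rho = 0.98) and miR-429-3p (r = 0.95, rho = 0.86). Without right eyes 65 and 66 the r values were 0.91, 0.95 and 0.75. For miR-203-3p they were miR-200c-3p (r = 0.93, rho = 0.94), miR-205-3p (r = 0.92, rho = 0.94) and miR-200a-5p (r = 0.91, rho = 0.93). Without left eye 64 and right eye 66 these r values were 0.90, 0.90 and 0.86. The neighbours of both thus came from the miR-200 family and the miR-205 hairpin.

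miR-184-3p had other neighbours. They were miR-135a-2-3p (r = 0.94, rho = 0.91), miR-1247-3p (r = 0.91, rho = 0.80) and miR-672-5p (r = 0.90, rho = 0.82), and without right eyes 66 and 68 the r values were 0.88, 0.79 and 0.82. miR-135a-2-3p had a signal between 219 and 669. Among the 5 miR-200 family members the highest r of miR-184-3p was 0.73, with miR-141-3p (rho = 0.74). For miR-31-5p the closest were miR-219a-5p (r = 0.74, rho = 0.69), miR-195a-3p (r = 0.74, rho = 0.79) and miR-1948-3p (r = 0.71, rho = 0.72). Without left eyes 61 and 65 these r values were 0.55, 0.82 and 0.60. Among the 4 themselves, miR-205-5p and miR-203-3p were closest (r = 0.89, rho = 0.94), and r was 0.72 for miR-184-3p with miR-205-5p, 0.64 for miR-184-3p with miR-203-3p, and -0.13 for miR-205-5p with miR-31-5p. Without right eyes 65 and 66 the last value was 0.53, so its sign rests on those libraries.

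The spread between libraries set miR-184-3p and miR-205-5p apart from the other 2. The SD of log2(signal + 1) over the 10 libraries was 1.08 for miR-184-3p and 1.09 for miR-205-5p, where the median of all 588 miRNAs was 0.34, and 96.8% and 97.3% of them had a smaller SD. For miR-203-3p the SD was 0.27, with 35.9% of miRNAs below it. For miR-31-5p it was 0.14, with 7.65% below it. Of the 159 tested miRNAs with a mean signal of at least 1000, 6 had an SD of at least 1, and these were miR-184-3p, miR-205-5p, miR-200b-3p and the retinal miR-183-5p (1.02), miR-96-5p (1.06) and miR-124-3p (1.07). The last 3 were each highest in right eye 68. The 5 miR-200 family members had SDs from 0.83 for miR-429-3p to 1.08 for miR-200b-3p.

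**Figure D4:**
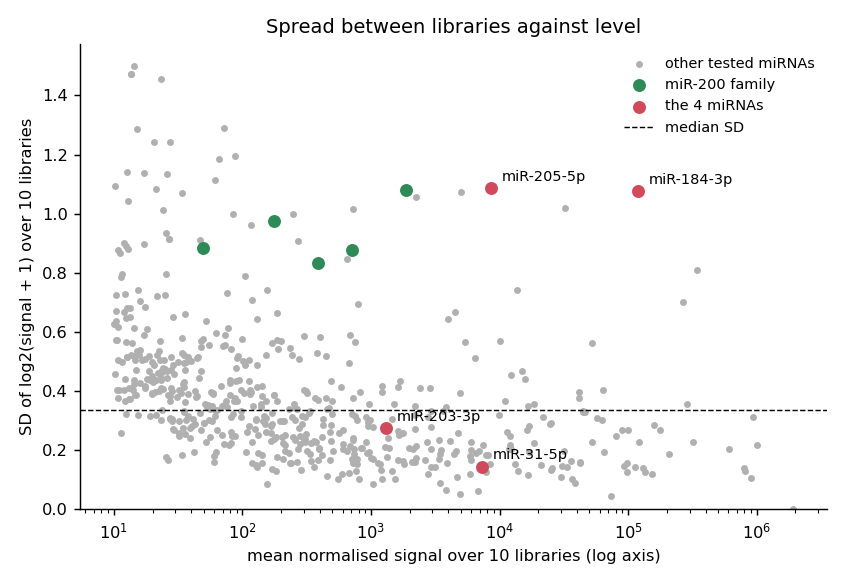
SD of log2(signal + 1) over the 10 libraries against mean normalised signal (log axis) for the 588 tested miRNAs (grey), with the 4 miRNAs in red, the miR-200 family in green and the median SD of 0.34 as a dashed line. miR-184-3p and miR-205-5p lie near the top at 1.08 and 1.09 despite their high signal, and miR-203-3p and miR-31-5p lie below the median.

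The other arm of each hairpin was present at a low level. miR-205-3p had 71.3 ± 51.5 (SD, n = 10) and ran from 9.80 in right eye 65 to 162 in left eye 66, the same libraries that held the lowest and highest miR-205-5p. The ratio of miR-205-5p to miR-205-3p stayed between 84.4 and 178, a 2.10-fold range, while the arms ranged 9.30-fold and 16.5-fold. The low values of the miR-205 hairpin in right eyes 65 and 66 were thus seen in both arms. miR-184-5p had 12.5 ± 5.77 and was 2530-fold to 22615-fold below miR-184-3p. In right eye 66, where miR-184-3p was lowest, miR-184-5p had 8.47, against 25.7 in left eye 66.

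miR-203-5p had 11.1 ± 8.42, between 3 in right eye 68 and 32.5 in left eye 64, and was lower in 4 of 5 right eyes, like miR-203-3p. On the opposite strand of that site, miR-203b-3p (chr12:112130887-112130908) covers nearly the same bases as miR-203-5p (chr12:112130889-112130910). It had at most 6.80 and was listed at 0 in left eye 65. Whether the counting by the authors used the strand is not stated in these sources. miR-31-3p had 10.7 ± 4.03 and did not follow miR-31-5p: the left eyes had 8.42 ± 3.04 and the right eyes 13.0 ± 3.81 (SD, 5 libraries a side), with 5.70 in left eye 66 and 17.9 in right eye 66. It was higher in the right eye of 3 numbers and lower in that of 2, 61 and 64. Its right minus left difference of 0.57 had adjusted p = 0.967 in limma.

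The balance of the arms, as log2 of 5p over 3p signal, was compared between sides by limma over the 158 hairpins with both arms kept. No hairpin passed (0.0%), and 3 had an unadjusted p under 0.05 (1.9%). Among these was miR-203, with a mean log2 ratio of -6.69 in left and -7.26 in right eyes and a difference of -0.57 (SE 0.23, adjusted p = 0.808 in limma). The differences were -0.49 for miR-31 (SE 0.27), 0.21 for miR-184 (SE 0.36) and 0.12 for miR-205 (SE 0.21). The value for miR-184 turned to -0.13 without number 66 and that for miR-205 to -0.15 with a pseudocount of 10. For miR-203 the unadjusted p in limma was 0.142 without the block. With a pseudocount of 10 its difference was -0.21, with an unadjusted p of 0.142 in limma. At signals near 10 the other arms of miR-184, miR-203 and miR-31 are sensitive to that pseudocount.

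**Figure D5:**
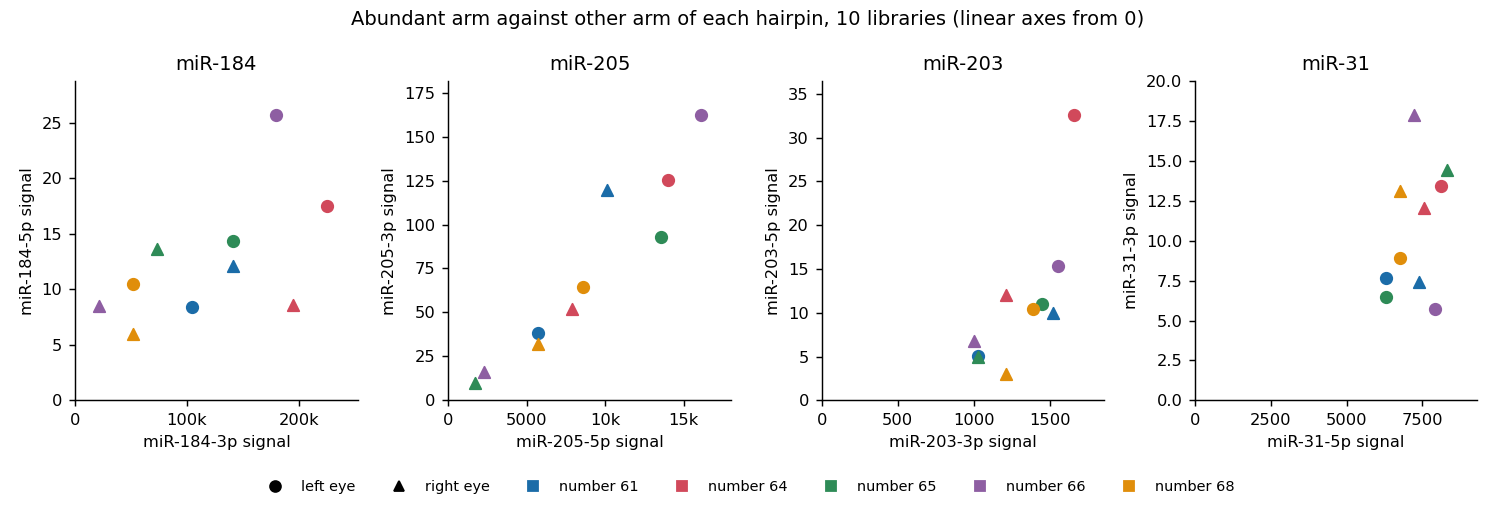
Signal of the other arm (vertical) against that of the abundant arm (horizontal) of the miR-184, miR-205, miR-203 and miR-31 hairpins in the 10 libraries, on linear axes from 0, circles for left and triangles for right eyes. The miR-205 arms are both lowest in right eyes 65 and 66 and both highest in left eye 66, while miR-31-3p ranges from 5.70 to 17.9 at nearly level miR-31-5p.

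The list of 9 other miRNAs described in corneal and epidermal work held none that passed in limma. It comprises the limbal miR-103-3p, miR-107-3p and miR-146a-5p, the corneal miR-450b-5p, miR-125b-5p and miR-214-3p of skin and hair follicle, and miR-24-3p, miR-34a-5p and miR-21a-5p of keratinocytes. Most are also made by many other cell types. Of these, 5 had a lower and 4 a higher mean in right eyes, against 269 lower and 319 higher of all 588 tested. Of the 9, 2 were lower in at least 4 of 5 right eyes, miR-107-3p and miR-34a-5p, where 13.3% of all tested were. The median difference was -0.0020. In right eyes 65 and 66 miR-103-3p had 27249 and 25150, within its range of 21427 to 28901 over all libraries. The summed list ran from 223 to 266 k, a 1.20-fold range.

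Markers of other tissue layers were read beside these values, as fewer cells of a type and less RNA per cell cannot be told apart in bulk tissue. The fibroblast and smooth muscle list (4 of 4 members above 0 in all libraries) summed to 1013 k in right eye 65 and 1014 k in right eye 66, against 839 to 853 k in the other 3 right eyes and 844 to 1068 k in left eyes. Most of it was miR-143-3p, with 885359 in both, against 740063 and 788025 in left eyes 65 and 66. miR-199a-3p and miR-199a-5p were also higher than in those left eyes. miR-145a-5p had 5902 and 6083, against 5733 and 7383 there. The striated muscle list (6 of 6) summed to 42.4 and 78.6 k in right eyes 65 and 66, in a range of 42.4 to 78.6 k in right and 25.9 to 104 k in left eyes. Most of that sum was miR-133a-3p. In number 65 it was lower in the right eye, as were miR-1a-3p, miR-133b-3p and miR-206-3p. miR-208b-3p was higher there, at 30.5 against 11.6 in the left eye, as was miR-499-5p. In number 66 each member of this list was higher in the right eye. The endothelium list (2 of 2) gave 260 and 342 k there, with ranges of 198 to 342 k in right and 201 to 267 k in left eyes. The retina and neuron list (6 of 6) gave 266 and 190 k, with ranges of 190 to 1332 k in right and 264 to 474 k in left eyes. Most of that sum was miR-182-5p, and its members did not move together. In numbers 65 and 66 miR-182-5p, miR-183-5p, miR-96-5p and miR-124-3p were lower in the right eye. miR-9-5p and miR-9-3p were higher there, miR-9-3p at 1073 and 1092 against 551 and 577 in the left eyes. The red cell list (4 of 4) gave 65.9 and 111 k, with ranges of 51.1 to 111 k in right and 70.1 to 110 k in left eyes. Most of that sum was miR-486a-5p and miR-486b-5p, both lower in the right eye of number 65. There miR-451a and miR-144-3p were higher, at 1159 and 231 against 1073 and 200 in the left eye. In number 66 each member of this list was higher in the right eye. The leukocyte list (5 of 5) gave 14.1 and 16.1 k, with ranges of 10.6 to 16.1 k in right and 10.8 to 16.4 k in left eyes. In numbers 65 and 66 each member of this list was higher in the right eye. There miR-142a-5p had 4514 and 4953, against 3191 and 3595 in the left eyes. All 5 had a higher mean in right eyes, as had 319 of the 588 tested, and none passed in limma. miR-142a-3p was higher in all 5 right eyes (2.04% of those tested were). In the pigment cell list (2 of 2) miR-204-5p, ranked first throughout, has the same value of 1931810 in all 10 libraries, and miR-211-5p ran from 27249 to 57345, a 2.10-fold range, with 57345 and 38750 in right eyes 65 and 66. No marker of these lists was at 0. The part of these layers in the low miR-205-5p and miR-200 values of right eyes 65 and 66 was not tested. Leaving out right eye 68, which held the 1332 k of retinal markers, gave -1.45 for miR-205-5p and -0.95 for miR-184-3p. Under the block this equals leaving out number 68 as a whole, so it does not test the part of the retinal signal.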

How the data were processed

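Small RNA libraries were made with a TruSeq kit, per the labels' protocols. The submitters' processing notes name Bowtie, Partek and the build GRCm38 (mm10). The authors deposited a normalised signal for each miRNA and library, and how they normalised it is not stated in these sources. At least at high ranks, a rank carries nearly the same signal in every library. miR-204-5p, ranked first throughout, has 1931810 in all 10. Fold differences, SDs and list sums here therefore largely reflect changes of rank among miRNAs. Each library's deposited signal sums to 11878152 at least and 11879036 at most. Only 7.31% of values above 0 are whole within 0.001, so reads could not be recovered, the depth is unknown, and no counting interval is given. Values were taken as log2(signal + 1), with 588 miRNAs of mean signal at least 10, which hold 99.988% of the signal. Fold changes on that scale understate low signals. Sides were compared by limma 3.58.1 (R 4.3.3) with the title number as a block, a mean-variance trend (none for arm ratios) and two-sided tests adjusted at 0.05. The fit across miRNAs was tested on data simulated with independent errors, while some miRNAs here moved together. That test therefore does not gauge the lack of calls. The title number was kept as a block because the protocol compares the eyes of an animal, though no label ties the number to an animal.

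Sequences are RefSeq's, matched by name for 1135 of the 1340 miRNAs. RefSeq coordinates are printed, since the stop in the table lies 1 base past the RefSeq end for 1133 of these. Named miRNAs are the 4, their other arms, the fixed lists, the marker lists, miRNAs of equal seed and the 3 most correlated with each. The 4 miRNAs and the lists were chosen with earlier results of these data known. Alternatives were the block, the pseudocount, the filter, median shifts, ranks, the trend and leaving out each number, with single right eyes added after seeing the data. miR-203b-5p, on the antisense list, was not analysed here.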

Additional observations from a re-analysis of the deposited data

How the results depend on the processing

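No miRNA passed the adjusted threshold in limma in any of the 16 alternatives, and neither did any of the 4. miR-184-3p, miR-205-5p and miR-203-3p stayed lower in right eyes in all 16. The block, filter and trend settings leave their estimates as they were, and leaving out a single right eye repeats leaving out its number. The direction could thus change only with the pseudocount, the median shift, ranks or a number left out. With single numbers left out, the log2 difference ran from -1.06 to -0.18 for miR-184-3p, from -1.80 to -0.85 for miR-205-5p, from -0.45 to -0.15 for miR-203-3p and from -0.0026 to 0.13 for miR-31-5p. The last turned to -0.0026 without number 65 or without right eye 65 alone. Under the block a lone eye of a number adds nothing, so both give the same value. The miR-184 arm ratio turned to -0.13 without number 66 or right eye 66 (range 0.44 to -0.13 with single numbers left out), and to a difference of -22.6 ranks with ranks in place of log2 signal. The miR-205 arm ratio turned to -0.15 with a pseudocount of 10. Arm ratios could not be taken with a minimum mean signal of 100, where no hairpin of the 4 was left. Without the replicate block the estimates stay as they were, no call changed (0 miRNAs), and the lowest adjusted p was 0.997. Deviations from the side means of same-numbered eyes correlated at 0.12, 0.45, 0.01, -0.13 and 0.28, and for 2 of 5 left eyes the best match was the right eye with its number, so these values do not show throughout that a number marks a pair. The shift to equal medians moved no library by more than 0.016 on the log2 scale. The medians lay between 7.346 and 7.366 before it, so this alternative could hardly change a result. The rank alternative re-expresses values that already largely follow rank.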

Other observations

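Values that stood out after they were seen, with no test, concern miR-184-3p and the red cell miRNA miR-451a. In right eye 66, the lowest library for miR-184-3p, miR-451a had its highest signal, 1982, against 1177 in left eye 66. In number 64, where miR-184-3p was highest in both eyes, miR-451a had its lowest, 860 in each. Both eyes of number 68, with miR-184-3p at 51789, had 1593. The red cell miRNA miR-144-3p went broadly with miR-451a, at 162 and 125 in left and right eye 64, 341 in right eye 66, and 337 and 383 in left and right eye 68. miR-486a-5p did not follow this order throughout: it had 57345 in right eye 66 but 50671 in left eye 64 and 23999 in right eye 68.

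In right eye 65 the ratio of miR-184-3p to the miR-200 sum, 98.8, was the highest of the 10 libraries, and in left eye 68 it was the lowest at 13.0. The next highest value was 76.7 in right eye 64. The miR-200 sum was lowest in right eye 65, at 0.740 k, and miR-184-3p had 73146 there, against 140793 in left eye 65.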
